A study of Mus musculus with 11 samples.

Results

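The genes described here are 10 genes of serine synthesis, folate-bound one-carbon metabolism and the ATF4 response in C2C12 cells, a mouse myoblast line: Phgdh, Psat1, Psph, Shmt1, Shmt2, Mthfd1, Mthfd2, Atf4, Asns and Chac1. They were chosen by name, and every probe on the array that carries 1 of these symbols was taken, which gave 13 probes of 25697 and 10 genes of 16593 named genes. MouseRef-8 v2.0 BeadChips, Illumina arrays of mouse genes, were used to measure RNA in 5 samples at Day 6, after exposure to differentiation medium with 2% horse serum, and in 5 samples at Day 0, from proliferating cells in growth medium with 20% fetal bovine serum. The samples are described in the labels as independent experiments. All come from the same cell line, no sample carries a transgene or drug, and each is RNA of a whole culture, so fewer cells of a type and less RNA per cell cannot be told apart. Cells left unfused at Day 6 are included in each Day 6 sample.

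Serine is made from a glycolytic intermediate by PHGDH, PSAT1 and PSPH in turn. The SHMT enzymes split serine into glycine and a one-carbon unit bound to folate, in the cytosol (SHMT1) and in mitochondria (SHMT2), and the MTHFD enzymes interconvert the bound units, which feed purine and thymidylate synthesis and, through methionine, methylation. ATF4 is a transcription factor whose protein is made in larger amounts when the translation factor eIF2 alpha is phosphorylated, as happens when amino acids are short or proteins misfold. Genes it is known to activate include Asns, which encodes asparagine synthetase, Chac1, which encodes an enzyme that breaks down glutathione, and several serine and one-carbon enzymes, among them Phgdh, Psat1, Shmt2 and Mthfd2. Dividing cells use one-carbon units for DNA synthesis, and myotubes, the fused cells that C2C12 myoblasts form, do not divide.

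ATF4 binds, with a C/EBP partner, a composite element of the form TGATGNAA. Promoter windows of 300 bases, most of each before the transcription start, were read from RefSeq on the mouse build GRCm38.p6, and all 10 genes had at least 1 window. The element was found on either strand in the windows of 2 of these 10 genes, Asns and Chac1, against 3.97% of all 32851 windows. Of 24 other known ATF4 target genes, 10 held it: Atf3, Fgf21, Got1, Herpud1, Jdp2, Nupr1, Pck2, Pycr1, Trib3 and Vldlr. Of these, Fgf21, Herpud1 and Vldlr rose at Day 6, and Atf3 and Jdp2 fell. The others did not pass the test between the days or were not tested. The closely related form TGACGCAA, which no word can match together with the first form, was in 0.49% of all windows and in those of Chac1 and Herpud1. A match is a description of the letters only, and a window without a match says nothing of binding by ATF4. Stretches around the element are shown for the 2 of the 10 genes that hold it, since neither passed the test between the days, and for 4 other target genes that hold it, of which Trib3 did not pass the test either. Each runs 5′ to 3′ along the gene's strand, and the capitals mark TGATGNAA or TGACGCAA, or the complement of either read backwards.

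Asns: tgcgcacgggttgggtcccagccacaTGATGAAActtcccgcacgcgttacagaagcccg
Chac1: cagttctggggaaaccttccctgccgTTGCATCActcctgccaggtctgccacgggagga
Fgf21: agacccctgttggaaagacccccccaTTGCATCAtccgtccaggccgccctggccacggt
Vldlr: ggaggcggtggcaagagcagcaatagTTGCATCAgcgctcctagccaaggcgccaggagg
Trib3: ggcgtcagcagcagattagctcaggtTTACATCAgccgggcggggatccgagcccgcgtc
Herpud1: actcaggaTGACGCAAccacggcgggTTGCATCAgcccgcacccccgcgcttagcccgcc

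The Asns stretch lies on the minus strand at chr6:7693199-7693258, with the element 23 bases before the start. The Chac1 stretch lies on the plus strand at chr2:119351023-119351082, with the element 193 bases before the start, and the TGACGCAA form of Chac1 begins 250 bases before it. The Fgf21 stretch lies on the minus strand at chr7:45615596-45615655. The Vldlr stretch lies on the plus strand at chr19:27216794-27216853. The Trib3 stretch lies on the minus strand at chr2:152344013-152344072 and spans the annotated start, with the element after it. The Herpud1 stretch lies on the plus strand at chr8:94386291-94386350 and holds both forms, as shown by its 2 runs of capitals.

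Of the 10 genes, 9 were tested, 5 fell at Day 6 and none rose. Phgdh, Psat1, Shmt1, Shmt2 and Mthfd1 were lower at an adjusted p under 0.05 (limma, over 8659 genes), whereas Mthfd2, Atf4, Asns and Chac1 did not pass. Over all genes tested, 24.2% were lower and 21.1% were higher. The median change of the 9 genes was -0.79 on the log2 scale, against -0.03 over all genes tested, and it was the same with Shmt1 at its bound. For 4 of the genes that fell (Phgdh, Shmt1, Shmt2 and Mthfd1) the Day 6 and Day 0 samples did not overlap. Over all genes tested, 17.2% were lower in this way. Shmt1 is counted in the 5 and in the 4, but it entered the test only through detection at Day 0, which favours a fall. All values are background-corrected, quantile-normalized log2 signals, and they are not compared between probes, since each probe has its own brightness.

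**Figure D1:**
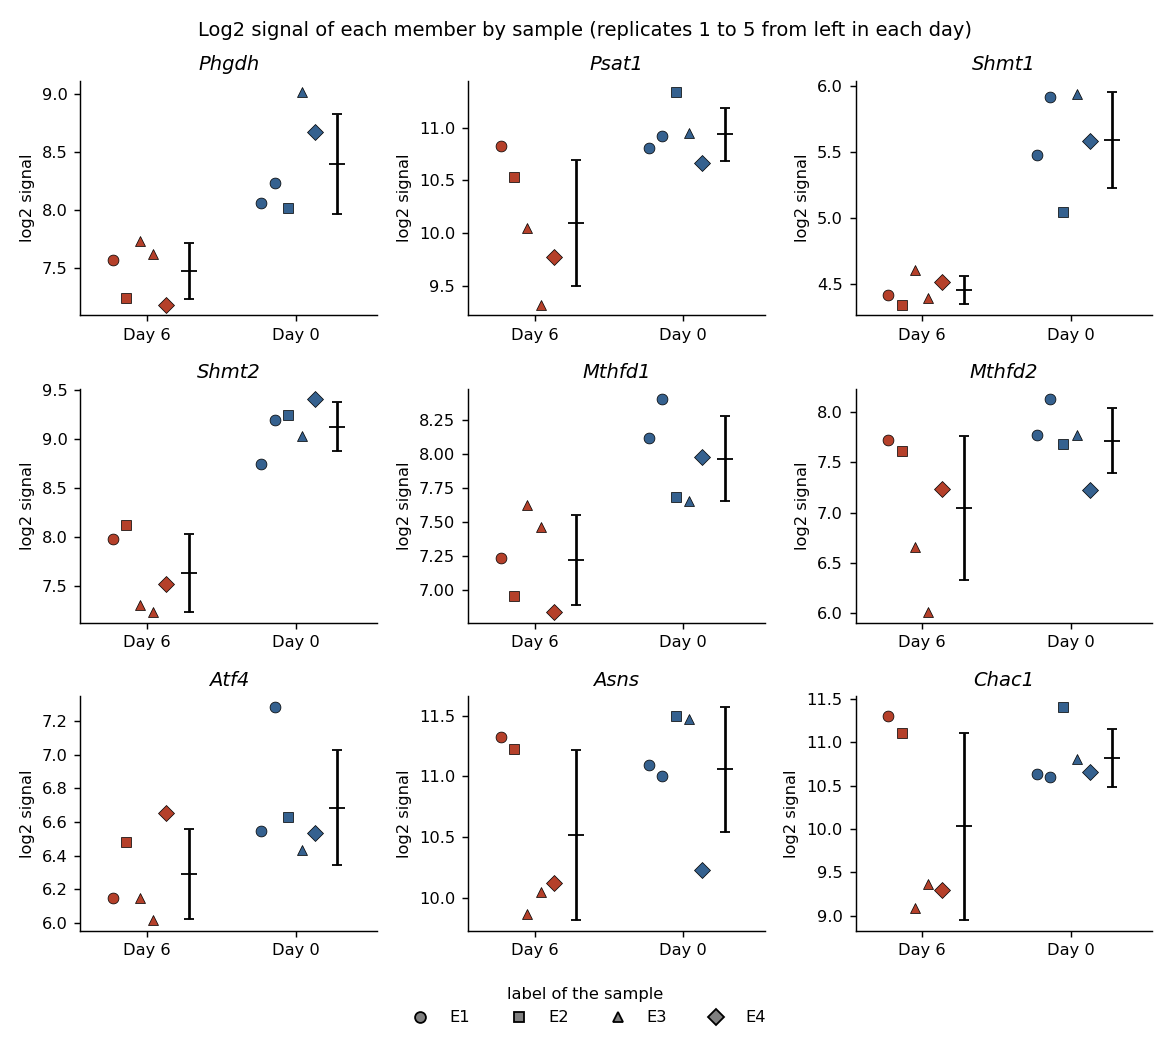
Normalized log2 signal of the 9 tested genes in each sample, Day 6 on the left and Day 0 on the right of each panel, with replicates 1 to 5 from the left, the mean and SD as bars and the symbol giving the E1 to E4 part of the sample's label. Axes do not start at 0 and differ between panels; the Day 6 samples of Phgdh, Shmt1, Shmt2 and Mthfd1 all lie below the Day 0 samples, and those of Chac1 lie between 9.09 and 11.30.

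Phgdh, which encodes the enzyme of the committed step of serine synthesis (probe ILMN_2790181), measured 7.57, 7.24, 7.73, 7.62 and 7.18 in Day 6 replicates 1 to 5, against 8.06, 8.23, 8.02, 9.02 and 8.67 in Day 0 replicates 1 to 5. The highest Day 6 sample was below the lowest Day 0 sample. The change was -0.93 (SE 0.21, adjusted p = 0.0023, exact permutation p = 0.0079, two-sided), a level 1.91-fold lower at Day 6. The exact p is the smallest that 5 samples against 5 can give.

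Psat1, which encodes the transaminase of the pathway (ILMN_1221048), measured 10.82, 10.53, 10.05, 9.33 and 9.77 at Day 6, against 10.80, 10.92, 11.34, 10.94 and 10.67 at Day 0. Day 6 replicate 1 lay within the Day 0 range, and the other 4 Day 6 samples lay below it. The change was -0.83 (SE 0.25, adjusted p = 0.015, exact permutation p = 0.024), or 1.78-fold lower. Psph, which encodes the phosphatase of the last step (ILMN_2624497), was not above background on any array, at 4.32 ± 0.04 at Day 6 and 4.37 ± 0.10 at Day 0 (SD, n = 5 each), and was not tested.

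Shmt2, which encodes the mitochondrial serine hydroxymethyltransferase, showed the largest measured fall of the 9 genes tested. Its brighter probe (ILMN_1224942) measured 7.98, 8.13, 7.31, 7.24 and 7.53 at Day 6, against 8.75, 9.20, 9.25, 9.03 and 9.41 at Day 0. The samples of the days did not overlap. The change was -1.49 (SE 0.20, adjusted p = 4.13e-05, exact permutation p = 0.0079), or 2.81-fold lower, and 4.10% of all genes tested had a more negative change. The dimmer probe (ILMN_2702703), tested in a fit over all 12753 detected probes, was 5.05 ± 0.30 at Day 6 and 5.89 ± 0.12 at Day 0 (SD, n = 5 each), a change of -0.84 (SE 0.16, adjusted p = 0.00083). Both probes were lower without overlap, and 23.8% of probes were called lower in that fit.

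Shmt1 (ILMN_2726055) encodes the cytosolic form of the enzyme. It was not above background on any Day 6 array and was detected on all 6 Day 0 arrays. Shmt1 thus entered the test only through Day 0, which favours a fall without overlap. It measured 4.42, 4.34, 4.61, 4.39 and 4.51 at Day 6, against 5.48, 5.92, 5.04, 5.94 and 5.58 at Day 0. Since the Day 6 values are only an upper bound, the level was at least 1.87-fold lower at Day 6, set against the dimmest signal called above background (adjusted p = 0.00014, exact permutation p = 0.0079).

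Mthfd1, which encodes the cytosolic trifunctional folate enzyme (ILMN_2960407), measured 7.23, 6.95, 7.62, 7.46 and 6.84 at Day 6, against 8.11, 8.40, 7.68, 7.65 and 7.97 at Day 0. The days did not overlap, but the gap between Day 6 replicate 3 and Day 0 replicate 4 was small. The change was -0.74 (SE 0.19, adjusted p = 0.0067, exact permutation p = 0.0079), or 1.67-fold lower. Mthfd2, which encodes a mitochondrial folate enzyme (ILMN_2878548), measured 7.72, 7.62, 6.66, 6.01 and 7.23 at Day 6, against 7.78, 8.13, 7.68, 7.77 and 7.23 at Day 0. Day 6 replicates 3 and 4 lay well below all other samples and the rest overlapped. The change was -0.67 (95% confidence interval -1.30 to -0.04, adjusted p = 0.079, exact permutation p = 0.071). Leaving out Day 6 replicate 1 or 2, or Day 0 replicate 5, took Mthfd2 past the threshold, with adjusted p of 0.034, 0.046 and 0.044.

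**Figure D2:**
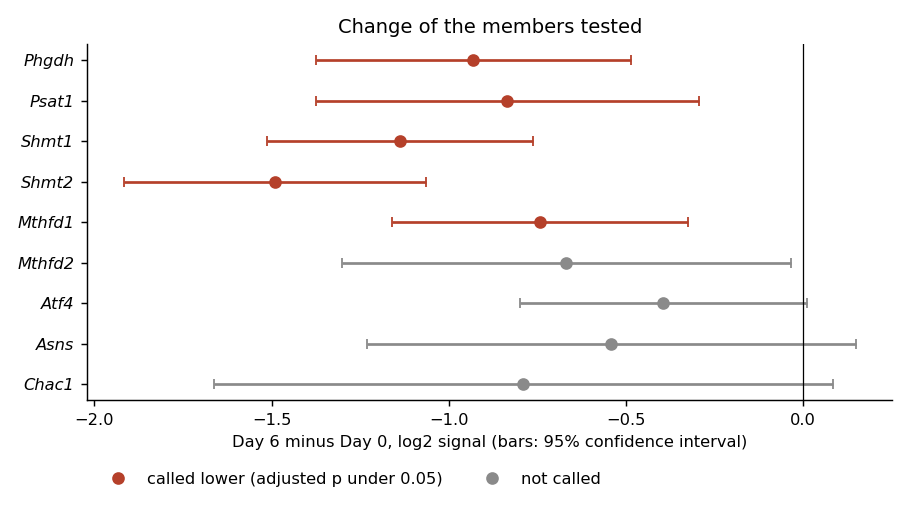
Day 6 minus Day 0 difference in log2 signal for the 9 tested genes, with bars for the 95% confidence interval of the fit; colour marks the 5 genes called lower. Chac1 has the widest interval, -1.66 to 0.08.

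Atf4 mRNA (ILMN_1223734) measured 6.15, 6.48, 6.15, 6.02 and 6.66 at Day 6, against 6.55, 7.28, 6.63, 6.43 and 6.54 at Day 0. The days overlapped, and Day 0 replicate 2 was above all other samples. The change was -0.39 (95% confidence interval -0.80 to 0.01, adjusted p = 0.103, exact permutation p = 0.079). The array measures the mRNA only, and ATF4 is known to be set largely at translation.

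Asns had 3 probes, none of which passed the test. The brightest (ILMN_2643513) measured 11.32, 11.22, 9.87, 10.05 and 10.12 at Day 6, against 11.09, 11.00, 11.49, 11.47 and 10.23 at Day 0. Day 6 replicates 1 and 2 lay within the Day 0 range, and Day 6 replicates 3 to 5 lay below it, close to Day 0 replicate 5. Its change was -0.54 (95% confidence interval -1.23 to 0.15, adjusted p = 0.189, exact permutation p = 0.19). The other probes of Asns gave changes of -0.35 (ILMN_2636755, adjusted p = 0.44) and -0.76 (ILMN_3006123, adjusted p = 0.082) in the fit over probes. In both, Day 6 replicates 1 and 2 were again the highest Day 6 samples, at 7.33 and 7.53 for the first of them, where Day 6 replicates 3 to 5 had 5.56, 5.88 and 6.58. For the second, Day 6 replicates 1 and 2 had 9.60 and 9.49, and Day 6 replicates 3 to 5 had 8.15, 8.25 and 8.21.

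Chac1 (ILMN_2617468) measured 11.30, 11.10, 9.09, 9.36 and 9.30 at Day 6, against 10.63, 10.60, 11.40, 10.80 and 10.65 at Day 0. Day 6 replicates 1 and 2 were above 4 of the 5 Day 0 samples, and Day 6 replicates 3 to 5 were below all 5. The mean was 10.03 ± 1.08 at Day 6 and 10.82 ± 0.34 at Day 0 (SD, n = 5 each), and the change was -0.79 (SE 0.41, adjusted p = 0.13, exact permutation p = 0.15). Without Day 6 replicate 1 the change was -1.11 (adjusted p = 0.024), and without Day 6 replicate 2 it was -1.06 (adjusted p = 0.042).

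The members also differed in how far the Day 6 samples lay apart. Chac1 had a larger SD among the Day 6 samples than 99.6% of all genes tested, Mthfd2 than 98.2%, Asns than 98.0% and Psat1 than 96.7%. Shmt1 lay at the other end, at 7.76%, where its Day 6 signal was at background. The Day 6 SD was 3.20 times the Day 0 SD for Chac1, 2.36 times for Psat1 and 2.22 times for Mthfd2. A ratio over 2 was found in 9.37% of all genes tested. Atf4 itself had an SD of 0.27 at Day 6 and 0.34 at Day 0, larger than 60.6% of genes at Day 6.

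**Figure D3:**
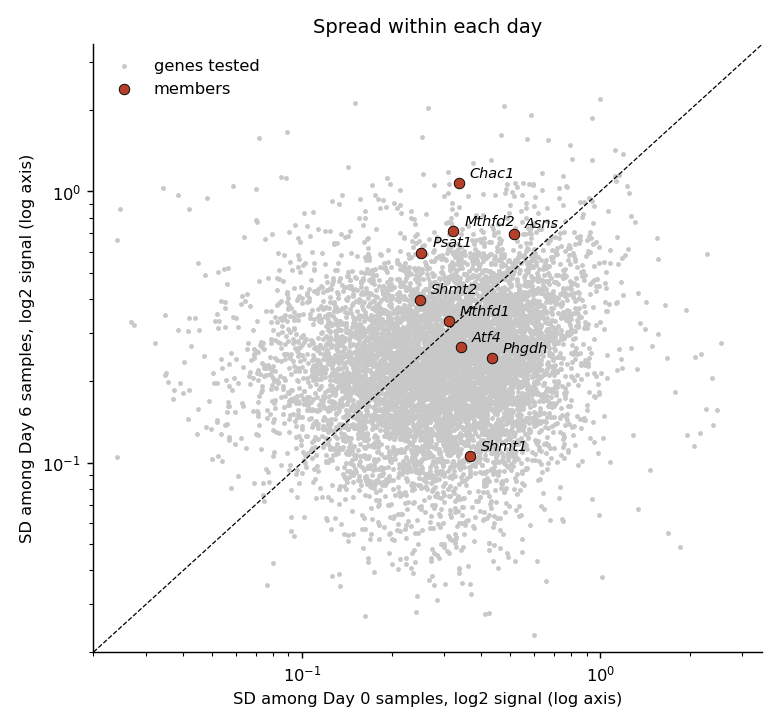
SD of log2 signal among the 5 Day 6 samples (vertical axis) against that among the 5 Day 0 samples (horizontal axis), both log axes, for all 8659 genes tested (grey) and the 9 tested members (red); the dashed line marks equal SDs. Chac1 lies highest of the members, at 1.08 among Day 6 samples.

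Part of each sample's label, E1 to E4, may mark a batch, though its meaning is not given in the sources used here. E1 holds Day 6 replicate 1 and Day 0 replicates 1 and 2, E2 holds Day 6 replicate 2 and Day 0 replicate 3, E3 holds Day 6 replicates 3 and 4 and Day 0 replicate 4, and E4 holds replicate 5 of both days. The 5 genes called lower (Phgdh, Psat1, Shmt1, Shmt2 and Mthfd1) were lower at Day 6 within each of E1 to E4, as were 28.4% of all genes tested. Shmt2 changed by -0.99, -1.12, -1.75 and -1.88 within E1, E2, E3 and E4. Phgdh changed by -0.58, -0.77, -1.34 and -1.49. Both, with the brighter probe of Shmt2, were below 0 in every label part, and the falls within E3 and E4 were the larger ones. The dimmer probe of Shmt2 was also below 0 in each, at -1.10, -0.82, -0.48 and -1.10. Its smallest fall was within E3, so the probes differ in this order. Psat1 changed by -0.04 within E1, against -0.81, -1.26 and -0.89 within E2 to E4. Mthfd1 had its smallest change within E3, at -0.11, with -1.02, -0.73 and -1.14 within E1, E2 and E4. Chac1 was higher at Day 6 within E1, by 0.68, and lower by -0.30, -1.58 and -1.35 within E2, E3 and E4. On the brightest probe, Asns likewise changed by 0.28, -0.27, -1.51 and -0.11, so the direction of both genes depended on the label part. The other Asns probes changed by 0.47, 0.20, -1.49 and 0.20 (ILMN_2636755) and by 0.25, -0.79, -1.46 and -0.62 (ILMN_3006123). The Asns probes thus differed in direction within E2 and E4. Mthfd2 changed by -1.44 within E3 and by -0.23, -0.06 and 0.01 within E1, E2 and E4. With E1 to E4 as a block in the fit, the same count of 5 genes was lower and none was higher.

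**Figure D4:**
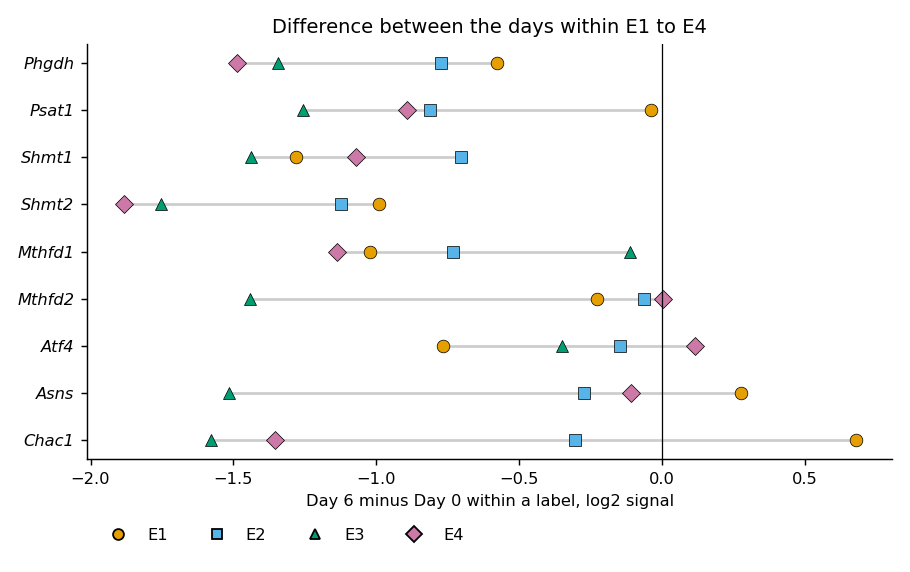
Day 6 minus Day 0 difference in mean log2 signal within each of the label parts E1 to E4, for the 9 tested genes; each point rests on 1 or 2 samples a day. Chac1 runs from -1.58 in E3 to 0.68 in E1, while the brighter probe of Shmt2 stays between -1.88 and -0.99.

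Genes that use or carry the one-carbon units also fell, in part. Of 10 other folate enzymes and carriers tested, 4 fell, none rose and 6 did not pass, with a median change of -0.34. That is 40% lower, against 24.2% lower and 21.1% higher over all genes tested. Tyms, which encodes thymidylate synthase, averaged 7.79 ± 0.27 at Day 6 and 10.21 ± 0.29 at Day 0 (SD, n = 5 each), a change of -2.42 (SE 0.18, adjusted p = 2.23e-07). Slc19a1, the reduced folate carrier, changed by -1.52 (SE 0.26, adjusted p = 0.0003). Sfxn1, a mitochondrial serine carrier, changed by -1.45 (SE 0.24, adjusted p = 0.00028). Fpgs, which adds the glutamate tail that keeps folate in the cell, changed by -0.90 (SE 0.18, adjusted p = 0.0012) and was named after its values were seen.

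Of 10 genes of purine and thymidylate synthesis tested, 7 fell and 1 rose, or 70% and 10%, with a median change of -0.93. Apart from Tyms, which is in both lists, the largest falls without overlap were those of Adss (-1.69, SE 0.28), a step toward AMP, and Atic (-1.27, SE 0.15), which uses formyl-folate in the last steps of IMP synthesis. Gart, which also uses formyl-folate, changed by -1.17 (SE 0.17), and Prps1, Prps2 and Ppat fell as well, these 4 genes being named after their values were seen. The gene that rose was Adssl1, the muscle form of adenylosuccinate synthase, with a level of 12.93 ± 0.09 at Day 6 and 9.81 ± 0.29 at Day 0 (SD, n = 5 each) and a change of 3.12 (SE 0.16, adjusted p = 6.49e-09). All 10 proliferation markers tested fell without overlap, with a median change of -3.06, and this moved with these falls. Its part in them was not tested. The marker Ccna2 was not above background on any Day 6 array, so it entered the test only through Day 0, which favours a fall. It was at least 1.06-fold lower at Day 6.

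The glycine cleavage system splits glycine into a one-carbon unit, carbon dioxide and ammonia. Of its 2 genes tested, Gldc, the decarboxylase, rose and Dld did not pass. Gldc measured 7.55, 7.35, 8.23, 7.95 and 8.07 at Day 6, against 6.00, 5.64, 5.18, 5.11 and 6.12 at Day 0. The days were well separated, in the opposite direction to the serine and folate enzymes, with a change of 2.22 (SE 0.23, adjusted p = 4.8e-06). Among 6 genes of the methionine cycle and transsulfuration tested, Mat2b, a regulatory subunit of methionine adenosyltransferase, rose by 0.82 (SE 0.23, adjusted p = 0.0093), and Mtap, which recycles a by-product of polyamine synthesis to methionine, changed by -1.57 (SE 0.20, adjusted p = 3.36e-05). The other 4 did not pass. The list was thus 16.7% higher and 16.7% lower, against 21.1% and 24.2% over all genes tested.

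Other genes known to be activated by ATF4 included some that rose and some that fell, at shares near those of all genes. Of 17 such genes of transcription and stress tested, 3 rose (Herpud1, Vldlr and Fgf21), 5 fell (Atf3, Cebpb, Jdp2, Eif4ebp1 and Stc2) and 9 did not pass, with a median change of -0.36. These are 17.6% higher and 29.4% lower, against 21.1% and 24.2% of all genes tested. With E1 to E4 as a block, or without Day 6 replicate 3, 4 rose and 2 fell, so the balance of the list rests on the setting. Only Herpud1, which works in the clearing of misfolded proteins from the endoplasmic reticulum, and Stc2, a secreted glycoprotein, were without overlap, and the other 6 called genes were named after their values were seen. Herpud1 measured 12.27, 12.30, 12.02, 11.96 and 11.50 at Day 6, against 10.17, 10.15, 10.64, 10.34 and 10.98 at Day 0, a change of 1.56 (SE 0.20, adjusted p = 3.22e-05). Stc2 changed by -0.42 (SE 0.15, adjusted p = 0.035), a call lost in 12 of 25 alternative settings, as were those of Jdp2 in 10 and Cebpb in 7.

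Fgf21, which encodes a secreted metabolic hormone and holds the element in its window, measured 10.83, 10.81, 6.10, 7.28 and 7.36 at Day 6, against 4.69, 4.42, 5.82, 5.45 and 6.94 at Day 0. Day 6 replicates 1 and 2 were far above every other sample. The mean change was 3.01 (SE 0.84, adjusted p = 0.0099, and 0.055 without a detection filter). Within E1 to E4 it was 6.28, 4.99, 1.24 and 0.42. Day 0 replicates 1 and 2, the Day 0 samples of E1, were near background, so the size of the change within E1 is uncertain. Vldlr, a lipoprotein receptor, was also highest in Day 6 replicates 1 and 2, with 9.99, 9.77, 7.93, 7.76 and 7.74 at Day 6, against 5.16, 5.51, 7.04, 7.92 and 6.55 at Day 0. Its change was 2.21 (SE 0.56, adjusted p = 0.0058), and within E3 it was -0.07. Trib3, a pseudokinase that holds back ATF4, did not pass (change -0.63, adjusted p = 0.42) and was named after its values were seen. It measured 7.63, 7.37, 4.59, 4.87 and 5.00 at Day 6, against 5.94, 6.22, 7.66, 6.99 and 5.76 at Day 0. In all 3 genes, as in Chac1 and Asns, Day 6 replicates 1 and 2 were the highest of the Day 6 samples. For Atf4 mRNA itself the highest Day 6 samples were replicates 5 and 2.

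Of 6 ATF4 targets of amino acid synthesis tested, 2 fell and none rose, with a median change of -0.62. That is 33.3% lower, against 24.2% lower and 21.1% higher over all genes tested. Bcat1, the cytosolic branched-chain aminotransferase, measured 9.04, 8.89, 5.72, 6.59 and 6.09 at Day 6, against 10.81, 10.80, 10.93, 10.41 and 10.38 at Day 0. It was lower in every Day 6 sample and lowest in Day 6 replicates 3 to 5, with a change of -3.40 (SE 0.57, adjusted p = 0.00027). Aldh18a1, an enzyme of proline synthesis named after its values were seen, changed by -1.07 (SE 0.40, adjusted p = 0.044), a call that was lost in 14 of 25 alternative settings.

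Of 10 amino acid transporters tested, 1 rose and 1 fell, or 10% each way, against 21.1% higher and 24.2% lower over all genes tested. Slc6a9, a glycine transporter, rose by 1.02 (SE 0.25, adjusted p = 0.0043) and was named after its values were seen. Slc1a5, a glutamine transporter, was not above background on any Day 6 array and was at least 1.19-fold lower there (adjusted p = 0.034). Of 12 cytosolic aminoacyl-tRNA synthetases tested, Cars, at least 1.17-fold lower (adjusted p = 0.031), and Wars, with a change of -0.48 (SE 0.18, adjusted p = 0.042) and named after its values were seen, fell. The calls of Slc1a5, Cars and Wars were lost in 15, 12 and 11 of the 24 or 25 alternative settings that tested them. Slc1a5 and Cars entered the test only through detection at Day 0, which favours a fall. Of the synthetases tested, 16.7% were lower and 0% higher. Of 9 eIF2 alpha kinases, subunits and phosphatase subunits tested, none passed, and Eif2ak3, the kinase that responds to misfolded proteins, was at -0.51 (adjusted p = 0.06).

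Of 12 endoplasmic reticulum chaperones and unfolded protein response genes tested, 3 rose and 3 fell, all without overlap, which is 25% each way, against 21.1% higher and 24.2% lower over all genes tested, of which 15.3% were higher and 17.2% lower without overlap. Dnajb9 (1.39, SE 0.24) and Dnajc3 (1.01, SE 0.22), co-chaperones of the organelle, rose, as did Xbp1 (0.56, SE 0.14), a transcription factor of the response. Hsp90b1 (-0.76, SE 0.14), Pdia4 (-0.54, SE 0.16) and Creld2 (-0.42, SE 0.15) fell, the call of Creld2 being lost in 7 of 25 alternative settings. Hspa5, the main chaperone there, did not pass, at -0.19 (adjusted p = 0.32). Its probe was near background at both days, at 4.7 at Day 6 and 4.9 at Day 0, so little can be read from it. Among 8 genes of glutathione synthesis and breakdown tested, Gclm, the modifier subunit of the rate-limiting step of glutathione synthesis, changed by -2.11 (SE 0.20, adjusted p = 2.07e-06). Gss, the enzyme that completes glutathione, rose by 0.94 (SE 0.19), and Oplah, which returns 5-oxoproline to glutamate, rose by 0.66 (SE 0.18). The other 5 did not pass, so 25% of this list were higher and 12.5% lower.

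**Figure D5:**
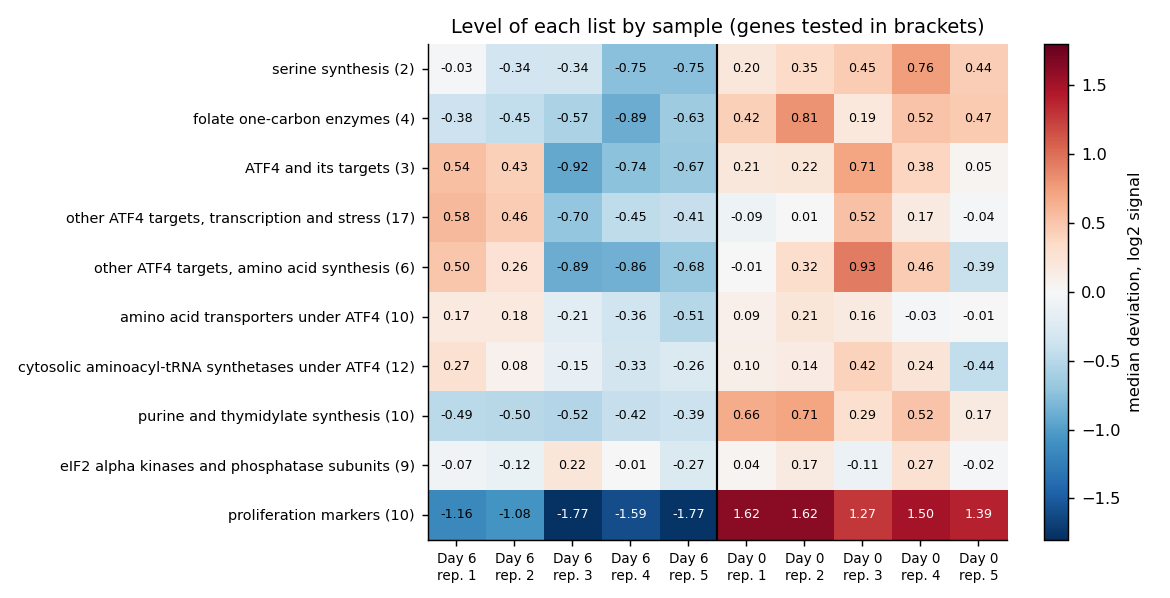
Level of each gene list in each sample, Day 6 samples left of the line and Day 0 samples right of it, as the median over the list's tested genes of the deviation of log2 signal from the gene's mean over 10 samples; the number of genes tested is in brackets. The row of Atf4, Asns and Chac1 is above 0 in Day 6 replicates 1 and 2, at 0.54 and 0.43. It lies between -0.92 and -0.67 in Day 6 replicates 3 to 5. In each Day 6 sample this median is the value of Asns alone.

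Read by sample, the level of Atf4, Asns and Chac1 together (median deviation of each gene from its mean over the 10 samples) was 0.54, 0.43, -0.92, -0.74 and -0.67 in Day 6 replicates 1 to 5, against 0.05 to 0.71 in the Day 0 samples. The 17 other ATF4 targets of transcription and stress had 0.58, 0.46, -0.70, -0.45 and -0.41 in the same Day 6 samples, against -0.09 to 0.52 in the Day 0 samples. By these medians, Day 6 replicates 1 and 2 stood above the other 3 in both lists. In each Day 6 sample the median of the first list was the value of Asns alone. Atf4 did not share this order, with log2 signals of 6.15, 6.48, 6.15, 6.02 and 6.66 in Day 6 replicates 1 to 5. The lists hold different genes but come from the same arrays, so the resemblance is a description. Over all genes tested, Day 6 replicates 1 and 2 correlated with each other at 0.993, replicates 4 and 5 at 0.989, and the other pairs between 0.970 and 0.979.

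Other values moved with this order. The proliferation markers were at -1.16 and -1.08 in Day 6 replicates 1 and 2, and at -1.77, -1.59 and -1.77 in replicates 3 to 5. The 3 fibroblast markers tested (Pdgfra, Col1a1 and Pi16) had a median of 1.89 and 0.92 in Day 6 replicates 1 and 2. In replicates 3 to 5 it was 0.49, 0.12 and 0.18. Pdgfra alone went against this order, with 6.28, 6.34, 6.87, 6.53 and 6.33 in Day 6 replicates 1 to 5. The part of the proliferation and fibroblast markers in the result was not tested. The skeletal muscle markers were at 2.34, 2.56, 2.15, 2.24 and 2.10 in Day 6 replicates 1 to 5, with little difference between them.

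The labelled cell type was checked against its markers. All 6 skeletal muscle markers tested (Myod1, Des, Myog, Ckm, Acta1 and Tnnc2) rose at Day 6, while Myf5 was not above background in any sample. Day 0 replicate 5 stood apart, with a muscle marker level of 0.31, where the other Day 0 samples lay between -3.05 and -2.35. Without it, 6 of the members were lower in place of 5, Mthfd2 being the addition. Of the 6 fibroblast markers searched for, 3 were detected at either day, and Thy1 and Tcf21 were not above background in any sample, the summed log2 signal of the list being 31.2 to 37.0 at Day 6 and 28.0 to 30.7 at Day 0. Adipoq, Plin1, Cidec and Fabp4 of adipocytes and Pecam1, Cdh5 and Emcn of endothelium were not above background in any sample, while Lep of the adipocyte list and Kdr and Tek of the endothelial list were detected and did not pass the test. Bglap of the osteoblast list rose by 2.73 (SE 0.28, adjusted p = 3.55e-06), while Ibsp and Dmp1 were not above background in any sample, and that list summed to between 25.9 and 26.5 log2 units in Day 6 samples, against between 23.4 and 24.45 in Day 0 samples. Cd14, the only macrophage and leukocyte marker tested, changed by -1.04 (SE 0.21, adjusted p = 0.0014). None of the 3 smooth muscle markers tested passed. The part of any of these cell types in the members' values was not tested. The share of probes detected was 44.7 to 48.7% on Day 6 arrays and 45.9 to 47.4% on Day 0 arrays, and the number of arrays limits the precision of every value.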

How the data were processed

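RNA of C2C12 cells was measured on 11 arrays of 10 samples, 5 of Day 6 and 5 of Day 0. Day 0 replicate 5 had 2 arrays, which were averaged after normalization. The authors extracted signals with GenomeStudio 2011.1. The deposited intensity of each probe is its average signal, not yet normalized, and is accompanied by a deposited detection p-value. The authors also deposited a score per probe, the Z-score of its log signal within an array, which differed from one computed from the signals by at most 0.005. 

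Signals were processed with limma 3.58.1 in R 4.3.3: neqc with an offset of 16 (it estimated the negative controls through the detection p), then quantile normalization and log2. A probe entered with a detection p under 0.05 in at least 3 samples of 1 day. The brightest probe on average stood for its gene. The model (lmFit, eBayes) held the day alone and covered 8659 genes, with Benjamini-Hochberg adjustment over all of them. A second fit took all 12753 detected probes. Single probes were also tested by an exact permutation test over 252 orderings. A probe not above background on every array of a day has only a bound there. Of 25697 probes, 23978 carried 1 symbol and 1719 none. Plots were drawn with matplotlib 3.10.9 in Python 3.11.15. The limma fit was tested on simulated log2 signals, and the other steps were not tested in this way.

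The members and the lists of related genes were chosen with earlier results of these data known. All members were named, with up to 3 called genes that rose and up to 3 that fell without overlap from each list. Other ATF4 targets that hold the element in their windows were named too. Most other genes are said to have been named after their values were seen. Alternatives were other background corrections, normalization, filters and probes, either array of Day 0 replicate 5, the deposited scores, a replicate block, a block of the E1 to E4 label parts, leaving out E4 or each sample, and the Z-ratio of the methods. The array's probe sequences and genome build were not used here, so no position is given for a probe.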

Additional observations from a re-analysis of the deposited data

Results flagged for a closer look

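In 2 of the 24 groups of 5 samples examined, 1 for each detected probe of the 10 genes and each day, a single sample lay far from the rest, where chance gives about 1 in 20 groups. Atf4 in Day 0 replicate 2 was 7.28, against 6.63 in the nearest Day 0 sample, a gap of 0.771 of the group's whole range. Chac1 in Day 0 replicate 3 was 11.40, against 10.80 in the nearest Day 0 sample, a gap of 0.745 of the range.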

How the results depend on the processing

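The count of members lower at Day 6 was 5 and lay between 4 and 7 under 25 alternatives, with 5 to 7 when each sample was left out in turn, and the count of members higher was 0 in all of them. It was 4 where detection in all 10 samples was required, which left Shmt1 out, and 7 under the Z-ratio of the methods, where 17% of genes were at -1 or less and 14.9% at 1 or more. No change of a member reversed its sign. Phgdh, Psat1, Shmt2 and Mthfd1 were called lower in every alternative run, with Psat1 at an adjusted p of up to 0.049, and Shmt1 in every one that tested it. Mthfd2 had adjusted p of 0.034 to 0.20 over its alternatives, Chac1 0.024 to 0.31, Atf4 0.047 to 0.26 and Asns 0.054 to 0.39. Atf4 passed only without both E4 samples (-0.52, adjusted p = 0.047). Mthfd2 and Chac1 also passed the Z-ratio, at -1.05 and -1.40. Psph was tested only without a detection filter (-0.05, adjusted p = 0.68). With equal array medians the median change of all genes was -0.13, and 5 members were lower in that fit too. No sign of pairing by replicate number was seen. Deviations of same-numbered samples correlated at -0.01, 0.00, -0.24, -0.13 and 0.19, and 0 of 5 Day 0 samples were most like their own number. Some same-numbered samples lie in different E1 to E4 label parts, so these values cannot exclude a pairing of another kind. With the replicate block, 5 members were lower and 0 higher. In the list of other ATF4 targets of transcription and stress, 5 genes fell and 3 rose, against 2 to 6 that fell and 2 to 4 that rose over the alternatives, with 2 that fell and 4 that rose under the E1 to E4 block and without Day 6 replicate 3. Dim probes such as Psph and the Day 6 signal of Shmt1 limit what the arrays show.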
